A study of Mus musculus with 96 samples.

Results

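Regions bound by GATA6 that hold a strong composite OCT:SOX motif but no more than a weak GATA6 motif were described across GATA6 induction. A region was a member when the score class of its best OCT:SOX match was high, that of its best GATA6 match was none or low, and that of its best SOX17 match was not high. Of the 42403 GATA6 regions, 960 met this rule (2.26%), on 20 chromosomes. A high OCT:SOX motif was present in 2834 regions, of which 1213 had a GATA6 class of none or low, and 253 of these were left out for a high SOX17 motif. Among the members, 272 had no GATA6 match and 688 had one of the low class, so most were poor in GATA6 motifs rather than devoid of them. The rule used sequence only, but it was applied to regions that the authors had called as GATA6 peaks. GATA6 signal at some time or in XEN cells was thus required of every region, members included. A rise of GATA6 after Dox was therefore in part built in.

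The assay was ChIP-seq, in which an antibody recovers chromatin fragments fixed to its target protein and these are sequenced. The cells were mouse KH2 ES cells of C57BL/6 x 129/Sv background, all carrying a doxycycline (Dox)-inducible Gata6 cassette. They were untreated (before Dox) or had 1 µg/mL Dox for 8 h, 16 h, 1 day, 2 days or 4 days. Cells of the line X10 (strain CD1, untreated) stood for XEN cells, a stem cell population of the primitive endoderm (PrE) lineage. KH2 cells given control siRNA or Oct4 siRNA, both with Dox, were profiled for GATA6 and SOX17 at day 2. The knock-down therefore started with induction, GATA6 came from a transgene, and XEN cells differed from the induced cells in strain as well as in origin. ES and XEN cells were both grown on feeder fibroblasts, which were adsorbed out before fixation, and only the medium of ES cells held LIF. The labels list 96 libraries of 47 conditions, and 45 conditions had a column in the deposited table. Each column holds a single value per region and condition, in RPM (reads in the region scaled to library size), pooled over the 1 to 3 libraries the labels list for it. GATA6 before Dox, the first value of the GATA6 time course, and OCT4 in XEN cells rest on 1 library each. No spread between replicates could be given and no difference between conditions was tested. What 1 read was worth could be read from 4 columns, in which values were whole multiples of it. It was 0.163 RPM for GATA6 before Dox, the shallowest of the 4, so that low values rest on a few reads. Of the 4 columns, SOX17 at 16 h and ESRRB at 8 h have 2 libraries each in the labels but a single step, so whether both libraries are in these values is not known.

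OCT4 and SOX2 are the central transcription factors (TFs) of pluripotent cells. They bind DNA side by side on a composite element, in which an HMG-box site for SOX2 precedes an octamer-like site for the POU domains of OCT4. This element marks enhancers of many genes active in ES cells. GATA6 is the zinc finger TF that drives PrE identity and recognizes a GATA core, while SOX17 is an endoderm TF whose HMG box is related to that of SOX2. ESRRB is a nuclear receptor of the pluripotency network, and OCT4, SOX2 and ESRRB are called pluripotency TFs (PTFs) below.

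The highest-scoring members show how closely these sites follow the composite element. They are printed from the mouse assembly GRCm38 (the assembly named mm10), on the strand of the match, as 30 bases with the 15 bases of the match in capitals, and the coordinates are those of the match. The name is that of the nearest protein-coding gene start.
Ly6f, chr15:75270646-75270660, plus strand: cagtcaaCTTTGTTATGCAAATgagtttca
Slain2, chr5:72902522-72902536, plus strand: taggtcgCTTTCTTATGCAAATggaatgct
Adra1b, chr11:43952351-43952365, minus strand: ggttaccCTTTGTCATGCAGATcatagggc
Ntm, chr9:29657903-29657917, minus strand: agttgtcCATTGATATGCAAATgcatgcta
Igfbpl1, chr4:45815713-45815727, plus strand: tgcctctCATTCTTATGCAAATaactccgc
Efna5, chr17:63176616-63176630, minus strand: ctgtctgCATTGTGATGCAAATctctcaag

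The capitals read from the SOX site on the left to the octamer-like site on the right. The Ly6f site, with the highest score (21.6), was also the string of the most common base at each of the 15 positions over all members, although no other member had exactly this site. Position 9 was T in 99.4% of members, position 3 was T in 95.5%, position 14 was A in 95.2% and position 4 was T in 94.5%. Position 7, between the sites, was the least fixed, with T in 43.9% of members. The full octamer ATGCAAAT at positions 8 to 15 was present in 129 members (13.4%), compared with 3.15% of the best matches of all 30302 regions that had one. The SOX site CATTGT at positions 1 to 6 was present in 53 members (5.52%) and the related CTTTGT in 103 (10.7%). Their shares of the best matches of all regions were 3.72% and 5.80%. Either of them was joined to the full octamer in 2 members (0.208%), compared with 0.0198% of all best matches. Most members thus held degenerate forms of the element, with 726 distinct 15-base sites among 960 regions. The count of CATTGT was limited in part by the rule, which left out regions with a high SOX17 motif. Within 100 bases of the GATA6 summit, CATTGT occurred in 56.5% of the 253 regions left out and 15.1% of members.

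At the class limit, signals did not step up with the score. The 25 members with the lowest scores, up to 13.07, had a median OCT4 signal before Dox of 1.31 RPM. The 25 regions just under the limit, with scores of 12.93 to 12.99, had a median of 2.01 RPM.

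The OCT:SOX match lay close to the point of strongest GATA6 signal. Its centre was a median of 40 bp from the GATA6 summit, compared with 119 bp for the best OCT:SOX match of all regions, and 56.6% of members had it within 50 bp, compared with 26.7%. The weak GATA6 matches of the 688 members that had one lay farther out, at a median of 100 bp, whereas the best GATA6 match of all regions lay at 51 bp. Where both matches were present, the OCT:SOX match was the nearer one in 449 of 688 members (65.3%). Regions with high OCT:SOX and SOX17 motifs and the same GATA6 limit (n = 253) had the same order. Their OCT:SOX match lay at a median of 51 bp, within 50 bp in 49.8%, and their GATA6 match at 103 bp. In regions with a high OCT:SOX and a high GATA6 motif (n = 704), this order was turned around, with the OCT:SOX match at a median of 97 bp and the GATA6 match at 52 bp.

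**Figure D1:**
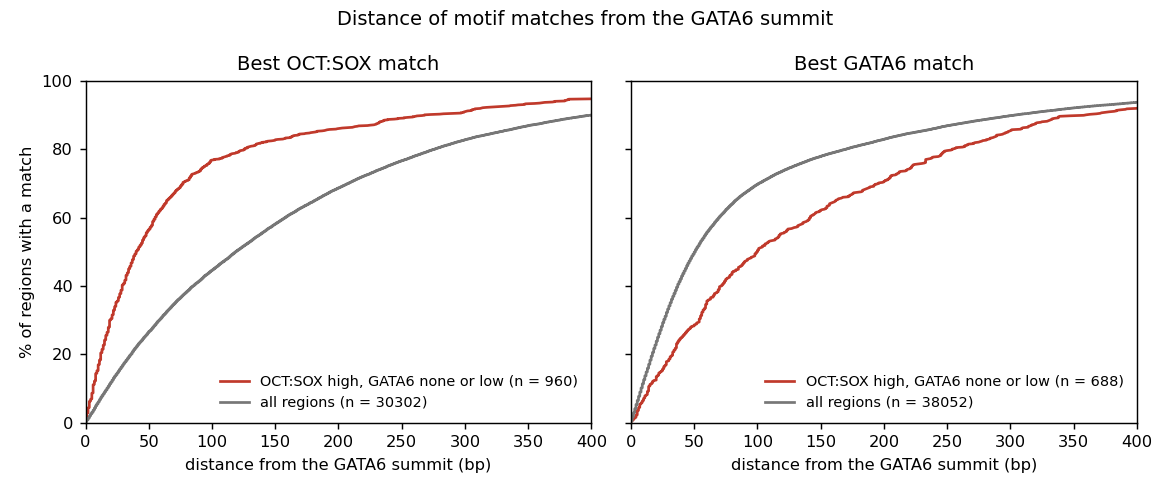
Cumulative share of regions (y axis, %) by the distance of the best motif match from the GATA6 summit (x axis, bp), for the OCT:SOX match on the left and the GATA6 match on the right, in members (red) and all regions (grey). The red line lies above the grey line for OCT:SOX, with medians of 40 and 119 bp, and below it for GATA6, with medians of 100 and 51 bp.

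Letters were also searched on both strands within 100 bases of each GATA6 summit. As the rule chose members by their motifs, these counts describe the sequences and are no separate support for it. The letters AGATAA, which hold the core bound by GATA factors, occurred in 195 members (20.3%), compared with 54.3% of all regions and 79.7% of regions with high OCT:SOX and GATA6 motifs. Some windows of regions with a poor GATA6 motif thus still held these letters. ATGCAAAT occurred in 13.4% of members and 2.997% of all regions, and CATTGT in 15.1% and 22.98%. The 195 members with AGATAA had a median GATA6 signal at 8 h of 2.78 RPM, and the 765 without it of 2.35 RPM.

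Before Dox, OCT4 and SOX2 had the highest median RPM on members, and both also lay above ESRRB on all regions. RPM is scaled to library size only, so this order between antibodies does not rank binding. The median OCT4 signal was 2.78 RPM (95% order-statistic interval 2.56 to 3.03 over 960 regions, which describes the regions and not the cultures), 3.95 times that of all regions, 0.703 RPM. The quartiles of members lay at 1.24 and 5.29 RPM and the extremes at 0.154 and 32.5 RPM. The median SOX2 signal was 3.16 RPM, and that of all regions 0.808 RPM. ESRRB, which has its own motif, reached a median of 1.06 RPM on members and 0.574 RPM on all regions. Input chromatin differed far less, at 0.487 and 0.448 RPM. Across members, OCT4 and SOX2 signals before Dox followed each other with a Spearman correlation of 0.967 over 960 regions, which share region width and chromatin state. Over all regions this correlation was 0.955. The score of the OCT:SOX motif itself had a correlation of 0.113 with OCT4, compared with 0.360 over all 30302 regions with a match.

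Across classes of the OCT:SOX motif, with the limits on GATA6 and SOX17 motifs held as in the rule, OCT4 was ordered as the classes were. The median OCT4 signal before Dox was 0.453 RPM in 4773 regions with no OCT:SOX match, 0.666 RPM in 6450 with a low one, 1.38 RPM in 1683 with a mid one and 2.78 RPM in members. GATA6 at 8 h had the same order, with medians of 0.703, 1.12, 1.91 and 2.42 RPM. GATA6 at day 4 did not, with medians of 1.13, 1.26, 0.899 and 0.646 RPM, and was lowest on members.

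By the authors' peak calls, 681 members (70.9%, Wilson 95% interval 68.0 to 73.7) were bound by PTFs before Dox, compared with 20.8% of all regions. Another 71 members (7.40%) gained PTF peaks after induction, which the authors class as ectopic, compared with 16.6% of all regions. The other 208 (21.7%) had no PTF peak, compared with 62.6% of all regions. Chromatin before Dox was accessible at 233 members (24.3%), moderate at 478 (49.8%) and closed at 249 (25.9%), whereas 7.43%, 31.2% and 61.3% of all regions were in these classes. By histone state, 271 members (28.2%) were active, 245 (25.5%) primed and 137 (14.3%) poised enhancers, and 56 (5.83%) were promoters. The shares of all regions were 11.2%, 16.9%, 14.6% and 6.88%, so that poised enhancers and promoters were about as frequent in both. The remaining members were classed as constitutive heterochromatin (123, 12.8%), facultative heterochromatin (61, 6.35%) or naive chromatin (67, 6.98%). Members lay between genes in 534 cases (55.6%), in introns in 383 (39.9%), in exons in 15 (1.56%) and within 1 kb of a gene start in 28 (2.92%), compared with 46.0%, 45.3%, 3.29% and 5.38% of all regions. The median distance to the nearest protein-coding gene start was 40.2 kb, compared with 31.1 kb for all regions.

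**Figure D2:**
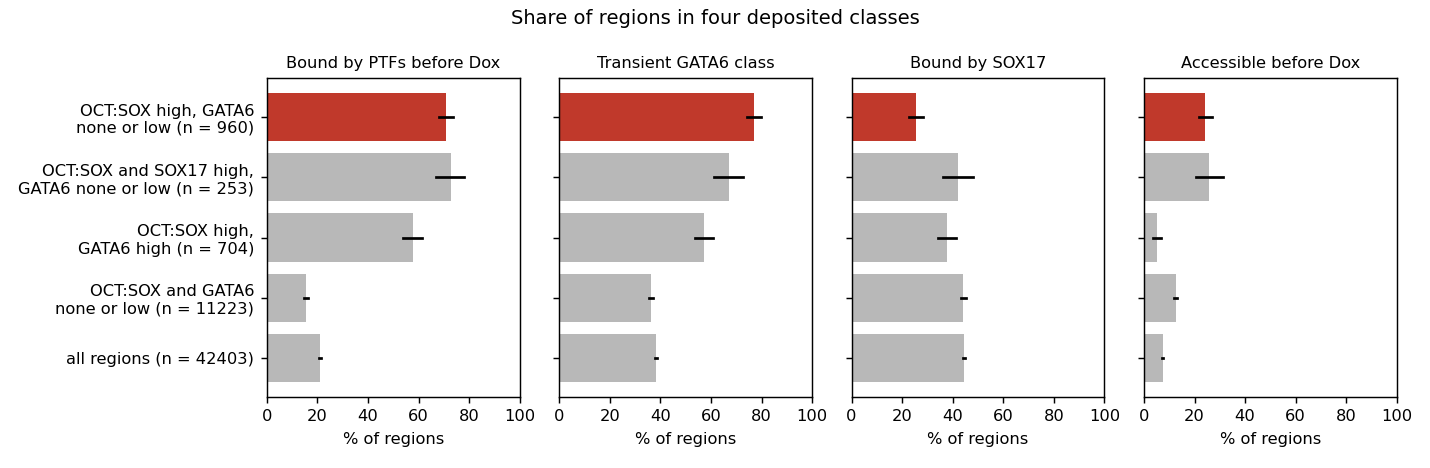
Share of regions (x axis, %) in 4 classes deposited by the authors, for members (red) and 4 other sets of GATA6 regions (grey), where black lines are Wilson 95% intervals over regions. Members reach 70.9% bound by PTFs before Dox and 77.2% in the Transient class, and 25.4% bound by SOX17, below the 44.5% of all regions.

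GATA6 on members was highest early after induction. Its median signal on members was 0.490 RPM before Dox, 2.42 RPM at 8 h, 1.62 RPM at 16 h, 1.12 RPM at day 1, 0.963 RPM at day 2, 0.646 RPM at day 4 and 0.398 RPM in XEN cells. The 8 h value was the highest of the series, and the day 4 value was already close to that before Dox. Changes are given on the scale of log2(RPM + pseudocount), with a pseudocount of 0.193 RPM for GATA6. From before Dox to 8 h, the median change was 1.92 (interval 1.85 to 1.99), and 814 members were at least 2-fold higher at 8 h (84.8%), beside 60.4% of all regions. All regions had a median change of 1.38 over this period, and with it subtracted the change on members was 0.54. From 8 h to day 4 it was -1.79 (interval -1.85 to -1.73), and 729 members were at least 2-fold lower at day 4 (75.9%), beside 34.8% of all regions. The median change of all regions over the latter period was -0.02. GATA6 was highest at 8 h in 71.9% of members, compared with 32.8% of all regions. At day 4, GATA6 was the highest of its time course in 7.92% of members and 37.2% of all regions.

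The authors' clusters of GATA6 binding, made from the same signals, placed 741 members (77.2%) in the Transient class, 148 (15.4%) in Early&Constant and 71 (7.40%) in Late. In all regions the shares were 38.4%, 28.0% and 33.6%. Members both bound by PTFs before Dox and Transient numbered 563 (58.6%), compared with 12.5% of all regions.

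OCT4 was also highest at 8 h and was lower in steps after that. Its medians were 2.78 RPM before Dox, 3.15 RPM at 8 h, 1.88 RPM at 16 h, 1.75 RPM at day 1, 1.85 RPM at day 2, 0.634 RPM at day 4 and 0.400 RPM in XEN cells. The values from 16 h to day 2 lay close together, and the larger difference was between day 2 and day 4. From before Dox to 8 h the change was 0.22, above 0 in 768 members (80.0%), beside 60.4% of all regions, but 0 members were at least 2-fold higher, beside 0.0283% of all regions. From day 2 to day 4 it was -1.18. From before Dox to day 4 it was -1.83 (interval -1.94 to -1.73). Over the full course, 683 members had at least 2-fold less OCT4 (71.1%), beside 19.4% of all regions, whose median change was 0.16.

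SOX2 had medians of 3.16, 3.13, 2.72, 1.501, 1.75 and 0.474 RPM from before Dox to day 4, and 0.383 RPM in XEN cells. Unlike OCT4, it stayed near its first value until 16 h. From before Dox to day 4 the change was -2.19, and 766 members were at least 2-fold lower (79.8%), beside 24.1% of all regions. ESRRB had medians of 1.06, 0.989, 0.967, 0.717, 0.517 and 0.364 RPM over the same times, with a change of -1.16 and 566 members at least 2-fold lower (59.0%), beside 25.2% of all regions. Input moved less, with a change of -0.19 on members between before Dox and day 4, and all of the changes from before Dox kept their sign as ratios to input.

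**Figure D3:**
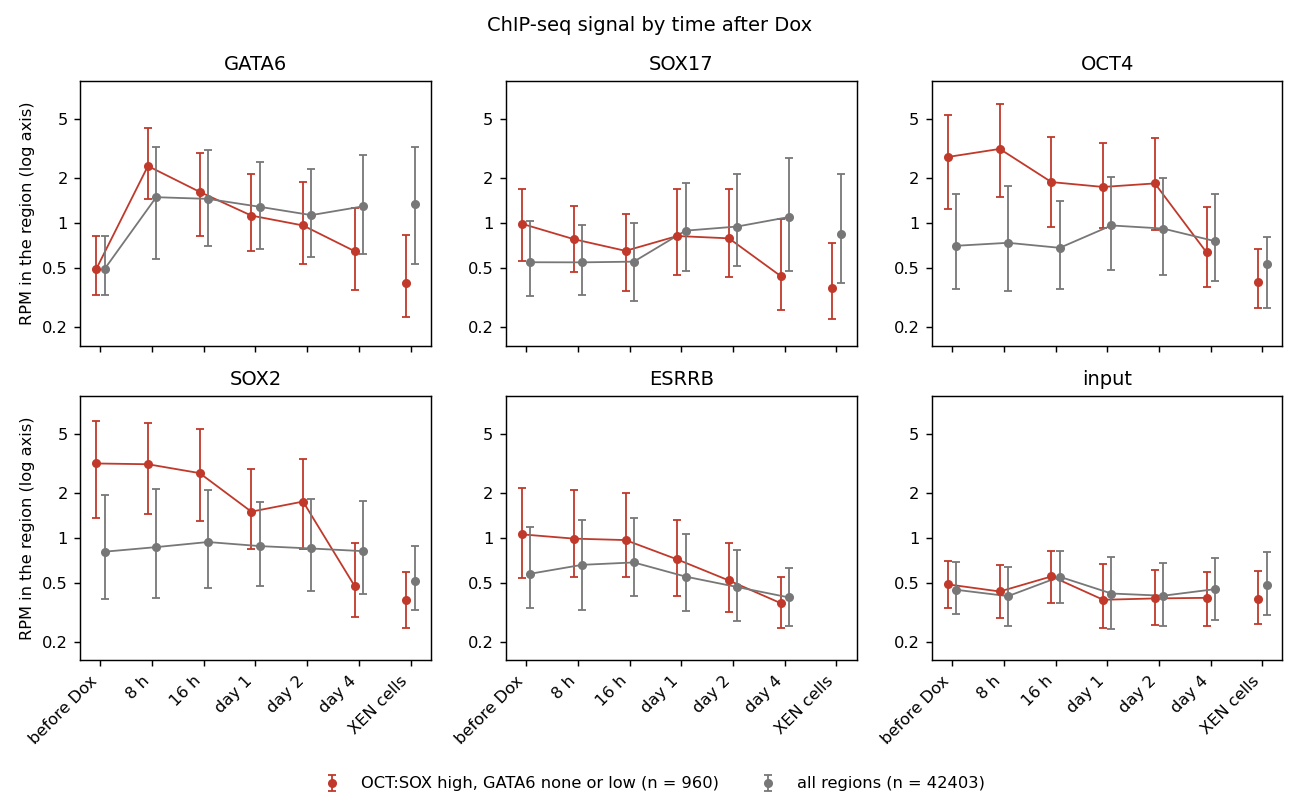
RPM in the region (y axis, log) by time after Dox and in XEN cells (x axis), for 5 TFs and input, in members (red) and all regions (grey), where points are medians over regions and bars span the interquartile range of regions, not replicates. GATA6 on members peaks at 2.42 RPM at 8 h, and OCT4 and SOX2 lie above all regions until day 2 and below them at day 4.

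SOX17 took a different course on members than on the whole set. Its median was 0.987 RPM before Dox, 0.779 RPM at 8 h, 0.650 RPM at 16 h, 0.818 RPM at day 1, 0.789 RPM at day 2, 0.440 RPM at day 4 and 0.368 RPM in XEN cells. On all regions it was 0.545 RPM before Dox and 1.10 RPM at day 4. The first value was therefore the highest on members and lay above that of all regions, at a time before induction. The paper reports that GATA6 activates Sox17 once induced. Whether SOX17 protein gave the signal before Dox was not tested, so a lower later value need not be a loss of SOX17. Across members, SOX17 before Dox had a Spearman correlation of 0.926 with SOX2 before Dox (960 regions, which share width and chromatin state). Over all regions the correlation was 0.927, so it was not particular to members. The part of SOX2 in the SOX17 signal before Dox was not tested. From before Dox to day 4, 398 members were at least 2-fold lower (41.5%), beside 8.72% of all regions, and 120 at least 2-fold higher (12.5%), beside 44.5%. The authors called a SOX17 peak on 244 members (25.4%), compared with 44.5% of all regions. These 244 members had a median SOX17 signal at day 4 of 2.24 RPM, and 34.8% of them were Transient, whereas 91.6% of the other 716 were.

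Level of PTF binding and level of early GATA6 went together. When members were ranked by OCT4 before Dox and cut into 4 bins of 240, median GATA6 at 8 h was 1.22, 1.92, 3.04 and 5.21 RPM from the lowest to the highest bin. GATA6 before Dox also differed, at 0.327, 0.490, 0.653 and 0.817 RPM, as did input, at 0.320, 0.396, 0.557 and 0.765 RPM, and region width, at 382 to 757 bp. Over 960 members, the Spearman correlation of GATA6 at 8 h was 0.741 with OCT4 before Dox and 0.713 with input before Dox. Over all 42403 regions these were 0.877 and 0.676, so the relation with OCT4 was not particular to members. The parts of width and input in this relation were not tested. By day 4 the bins were closer, at 0.498, 0.392, 0.627 and 1.02 RPM of GATA6.

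Accessibility split the members in the same direction. The 233 accessible members had medians of 5.58 RPM of OCT4 before Dox and 3.04 RPM of GATA6 at 8 h, and 85.0% were Transient. The 249 closed members had 0.928 RPM and 1.49 RPM, and 61.4% were Transient. Closed chromatin did not always go with absent PTFs, since 69 closed members carried a PTF peak before Dox. In these 69, GATA6 at 8 h had a median of 2.98 RPM, close to the 3.10 RPM of the 225 members that were accessible and bound by PTFs, and above the 1.22 RPM of the 130 closed members without PTF peaks. Median widths of these groups were 610, 548 and 394.5 bp, and the part of width was not tested.

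The 71 members with ectopic PTF peaks had a different time course. Their median OCT4 signal was 0.977 RPM before Dox, 0.937 RPM at 8 h, 1.99 RPM at day 2 and 1.37 RPM at day 4. Of these 71 members, 50 were closed before Dox, and 59.2% of the 71 had a SOX17 peak. Their GATA6 had medians of 1.07 RPM at 8 h and 1.13 RPM at day 4. These classes come from the same ChIP-seq libraries, so the values describe the classes and are no test of them.

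GATA6 signal was higher on members with a weak GATA6 match. The 688 members with a low GATA6 motif had a median GATA6 signal at 8 h of 2.83 RPM and the 272 without any match 1.82 RPM, while OCT4 before Dox was 2.81 and 2.76 RPM. Regions without a match were also narrower (402 and 580 bp). RPM is summed over a region, and the part of width in this difference was not tested. Of the members without a match, 83.5% were Transient and 76.5% were bound by PTFs before Dox. An ESRRB motif went with ESRRB signal, which had a median of 3.90 RPM before Dox in 111 members with a high ESRRB motif and 0.792 RPM in 603 with none. Classes also differed with the position of the OCT:SOX match. Members with the match within 25 bp of the GATA6 summit (n = 342) were Transient in 83.3% of cases and had SOX17 peaks in 23.1%, whereas members with the match over 200 bp away (n = 134) were Transient in 47.8% and had SOX17 peaks in 50.0%. The latter regions were wider, with a median of 852 bp compared with 504 bp.

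Genes near the members were read from lists of pluripotency, PrE and trophectoderm genes, by the nearest protein-coding gene start within 100 kb. Of 54 pluripotency genes, 9 were nearest to 1 member each, and those 9 members were 0.938% of all members, compared with 0.863% of all regions nearest such a gene. None of 46 PrE genes was nearest to a member, although 340 regions of the whole set (0.802%) were nearest to one. Of 16 trophectoderm genes found in the annotation, 3 had a member (0.312%, compared with 0.163% of all regions). The sites of some members nearest to listed genes are printed next, as above.
Nanog, chr6:122707413-122707427, minus strand: ccatggaCATTGTAATGCAAAAgaagctgt
Klf5, chr14:99278674-99278688, plus strand: aattggtCTTTGTAATGTTAATgtctcttt
Lifr, chr15:7115862-7115876, minus strand: tcttggaCATGGAAATGCAAATtcacaaag
Jarid2, chr13:44728210-44728224, plus strand: caggaggCATAGTCATGCTAATttctgagt
Eomes, chr9:118406356-118406370, minus strand: tgtattgTATTGTAATGCTAAAttaggtat
Elf5, chr2:103364225-103364239, minus strand: atgcggtTTCTGATATGCAGATgtgagaag

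The Nanog region, chr6:122707247-122707684, covers the promoter of this homeobox TF of naive pluripotency, which is known to hold a composite OCT:SOX element. OCT4 was 4.74 RPM before Dox, 5.47 RPM at 8 h, 4.15 RPM at 16 h, 3.34 RPM at day 1, 3.39 RPM at day 2, 0.613 RPM at day 4 and 0.533 RPM in XEN cells. GATA6 was 1.14, 3.23, 2.60, 1.33, 1.05, 0.576 and 0.432 RPM in the same order. GATA6 was thus highest at 8 h, and both TFs were under their first value at day 4 and in XEN cells.

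Lifr encodes a receptor subunit for the self-renewal cytokine LIF, and its member lay in an intron, 25.3 kb from the gene start. It had 1 of the 6 strongest OCT4 signals before Dox among members, 22.8 RPM, followed by 29.4, 14.9, 9.80, 12.8 and 4.30 RPM to day 4 and 0.933 RPM in XEN cells. GATA6 there was 3.76 RPM before Dox, 11.6 RPM at 8 h and 3.68 RPM at 16 h, and was 3.99 RPM at day 4, so that it was back at its first value by 16 h. Klf5 encodes a Krüppel-like TF of the naive network. Its member, between genes at -20.0 kb from the start, had 6.30 RPM of OCT4 before Dox, 5.83 RPM at day 2 and 3.45 RPM at day 4, and GATA6 of 0.817, 5.74 and 1.93 RPM before Dox, at 8 h and at day 4.

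Jarid2 encodes a partner of the Polycomb repressive complex that deposits repressive histone methylation. Its member, within 1 kb of the gene start, had the strongest GATA6 signal at 8 h of the 11 regions described near listed genes, 17.9 RPM, from 1.14 RPM before Dox, and was of the Early&Constant class, with 8.39 RPM at day 2 and 3.86 RPM at day 4. OCT4 was 11.7 RPM before Dox, 17.0 RPM at 8 h, 14.5 RPM at day 2 and 5.23 RPM at day 4. SOX17 there was 5.28 RPM before Dox and 12.97 RPM at day 2. The member near Tet2, which encodes a 5-methylcytosine oxidase, was of the Transient class. Its GATA6 was 6.11 RPM at 8 h and 2.94 RPM at day 4. The members near Nr5a2, an orphan nuclear receptor, Tbx3, a T-box TF, and Etv5, an ETS family TF, were weaker. Their GATA6 at 8 h was 1.09, 1.87 and 0.688 RPM.

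Of the trophectoderm genes, Eomes encodes a T-box TF of trophoblast stem cells. Its member, at -71.8 kb from the gene start, had 9.88 RPM of OCT4 before Dox and 0.883 RPM at day 4, and 4.49 RPM of GATA6 at 8 h and 0.827 RPM at day 4. Tfap2a encodes an AP-2 TF, and its member had 3.005 RPM of OCT4 before Dox and 0.356 RPM at day 4. The member near Elf5, an ETS family TF of trophoblast, was the reverse of these. It was closed before Dox, with OCT4 of 2.39 RPM before Dox, 5.19 RPM at day 1, 4.70 RPM at day 2 and 6.98 RPM at day 4, and GATA6 of 0.490, 4.88, 4.25 and 4.80 RPM. OCT4 was therefore highest there at the last time of induction, and it was 0.400 RPM in XEN cells.

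**Figure D4:**
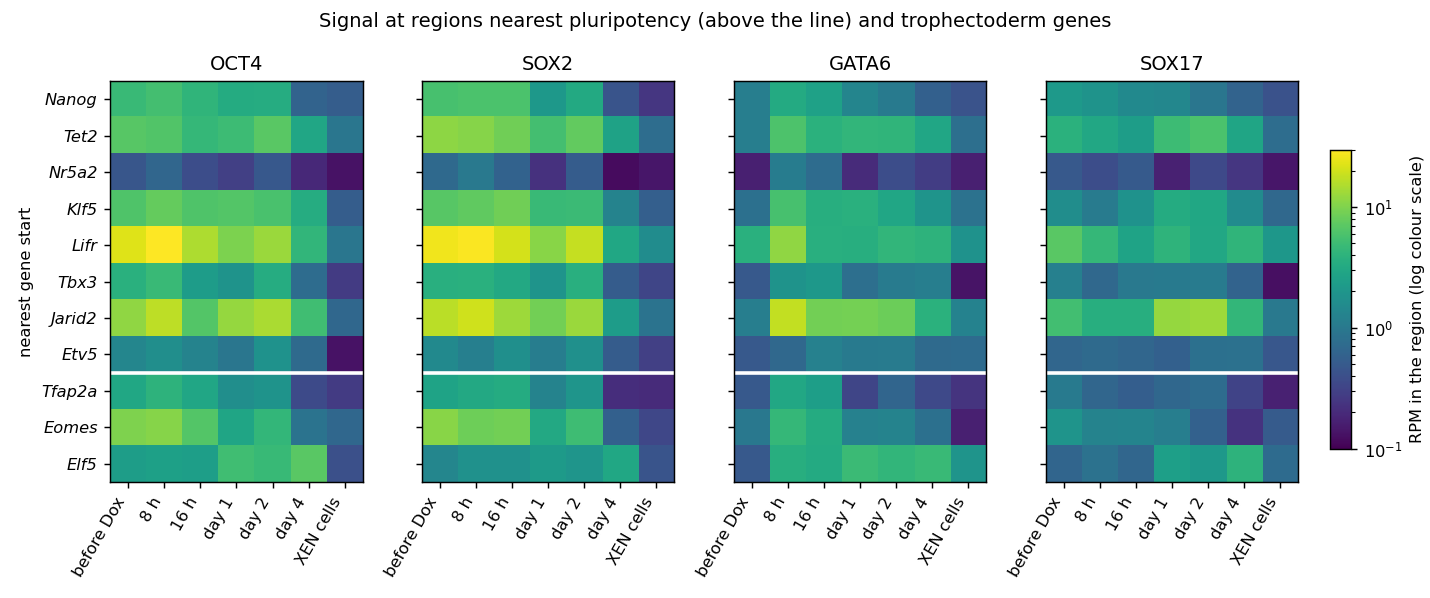
RPM in the region (color, log scale) of OCT4, SOX2, GATA6 and SOX17 by time after Dox and in XEN cells (x axis), for 11 members nearest listed pluripotency genes (8, above the white line) and trophectoderm genes (3, below it). Most rows are brightest for OCT4 and SOX2 at the left and for GATA6 at 8 h, while Elf5 has its highest OCT4, 6.98 RPM, at day 4.

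The members with the most OCT4 before Dox were a description chosen on that value. Apart from Lifr, the nearest gene starts were those of Crlf2, Trp53, Cenpv, Zfp36l1 and Kat2b, with 23.8 to 32.5 RPM. The start of Zfp36l1 was 102.6 kb away, and that of Cenpv 27.7 kb away from a member in an intron of Pigl. In the intron of Trp53, which encodes the tumor suppressor p53, OCT4 was 24.7 RPM before Dox and 5.24 RPM at day 4, and GATA6 was 11.2 RPM at 8 h and 3.73 RPM at day 4. Near Kat2b, which encodes a histone acetyltransferase, OCT4 was 23.8 and 1.80 RPM, and GATA6 was 5.17 RPM at 8 h and 1.32 RPM at 16 h. The region at Crlf2, a cytokine receptor subunit, was an exception. OCT4 was 32.5 RPM before Dox, 45.8 RPM at day 2 and 29.8 RPM at day 4, while SOX2 was 8.44, 9.21 and 8.60 RPM, so that it kept at day 4 the OCT4 it had before Dox. Its input was also high, at 1.46 RPM before Dox and 2.18 RPM at day 4. The Ly6f region with the highest motif score was closed before Dox and had only 1.21 RPM of OCT4 then and 3.73 RPM at day 2.

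Some of the sites recurred in several members. The 7 most frequent 15-base sites, each present in 9 to 31 members, together accounted for 111 members (11.6%), a grouping made after the values were seen. An example of each is printed because the words differ from the canonical element, with the number of members that share its capitals.
CATTCTTATTCAAAC in 31 members, chr1:64524758-64524772, minus strand: tggggccCATTCTTATTCAAACccaccatc
CATTCTCATTCAAAC in 18 members, chr11:27222656-27222670, minus strand: taggggcCATTCTCATTCAAACcactacac
CATTCAATTGCAAAT in 17 members, chr1:53750067-53750081, minus strand: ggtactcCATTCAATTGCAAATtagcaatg
AATTGATATGTAAAT in 13 members, chr1:71241769-71241783, plus strand: aatgacgAATTGATATGTAAATaaaagact
CTTTGATATGTTAAA in 13 members, chr1:21256666-21256680, plus strand: aggtcccCTTTGATATGTTAAAtaaccacc
TATTGTAATGCTAAA in 10 members, chr1:153216593-153216607, plus strand: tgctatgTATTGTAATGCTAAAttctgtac
CTTTGATATGCTAAT in 9 members, chr1:68780284-68780298, plus strand: tcaggagCTTTGATATGCTAATaggcactc

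The first pair differ by a single base, C7T when read from the second printed site to the first and counted from 1 at the left. Of the 111 members, 102 had the site in repeat-masked (lower case) sequence of the assembly, and the 9 members of the last site had it outside. Over all members, 211 sites (21.98%) were repeat-masked, compared with 15.2% of the best matches of all regions. Flanks of 20 bases on each side were most alike for CATTCAATTGCAAAT, with a median pairwise identity of 85.0%, and least for CTTTGATATGCTAAT, with 28.8%. The Eomes site belongs to the TATTGTAATGCTAAA group and the Etv5 site to the CATTCTTATTCAAAC group.

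Repeat-borne sites carried signal too. Median OCT4 before Dox was 2.88 RPM in the 211 repeat-masked members and 2.75 RPM in the other 749, GATA6 at 8 h was 2.47 and 2.37 RPM, and 75.4% and 69.7% were bound by PTFs before Dox. The groups were not alike. All 10 members with TATTGTAATGCTAAA were bound by PTFs before Dox, with a median OCT4 signal of 8.61 RPM and GATA6 of 3.48 RPM at 8 h. The 18 members with CATTCTCATTCAAAC had a median of 1.32 RPM of OCT4. Of the 31 members with CATTCTTATTCAAAC, 11 (35.5%) had a SOX17 peak and the same number were Early&Constant. By histone state, constitutive heterochromatin was assigned to 24.2% of repeat-masked members and 9.61% of the others. Input before Dox was 0.486 RPM in the repeat-masked members and 0.487 RPM in the others.

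With Oct4 siRNA at day 2, GATA6 on members was lower than with control siRNA. The median GATA6 signal was 0.796 RPM with control siRNA and 0.568 RPM with Oct4 siRNA, and 1.64 and 1.68 RPM on all regions. The median change on members was -0.32 (interval -0.37 to -0.28) and that of all regions was -0.0039. GATA6 was lower in 723 members (75.3%), beside 50.2% of all regions, and 116 were at least 2-fold lower (12.1%), beside 5.28% of all regions. A further 14 members were at least 2-fold higher (1.46%), beside 7.77%. At named regions, GATA6 was 10.6 RPM with control and 6.19 RPM with Oct4 siRNA near Jarid2, 11.3 and 5.21 RPM near Cenpv, 2.91 and 1.78 RPM near Lifr, and 3.08 and 3.12 RPM near Klf5. Members bound by PTFs before Dox had a change of -0.40 and those without PTF peaks of -0.13. In the 71 Late members the change was 0.35.

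SOX17 went the other way in the deposited scale and with all regions. Its median on members was 0.522 RPM with control and 0.636 RPM with Oct4 siRNA, a change of 0.25, but all regions had a change of 0.52. Relative to all regions the change on members was -0.27, so its sign depends on the scaling. On the deposited scale 63 members were at least 2-fold higher (6.56%), beside 20.8% of all regions, and 15 at least 2-fold lower (1.56%), beside 0.441%. Each siRNA condition is a single pooled value, and less OCT4 in the cells, less GATA6 in the cells and less binding per cell cannot be told apart.

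**Figure D5:**
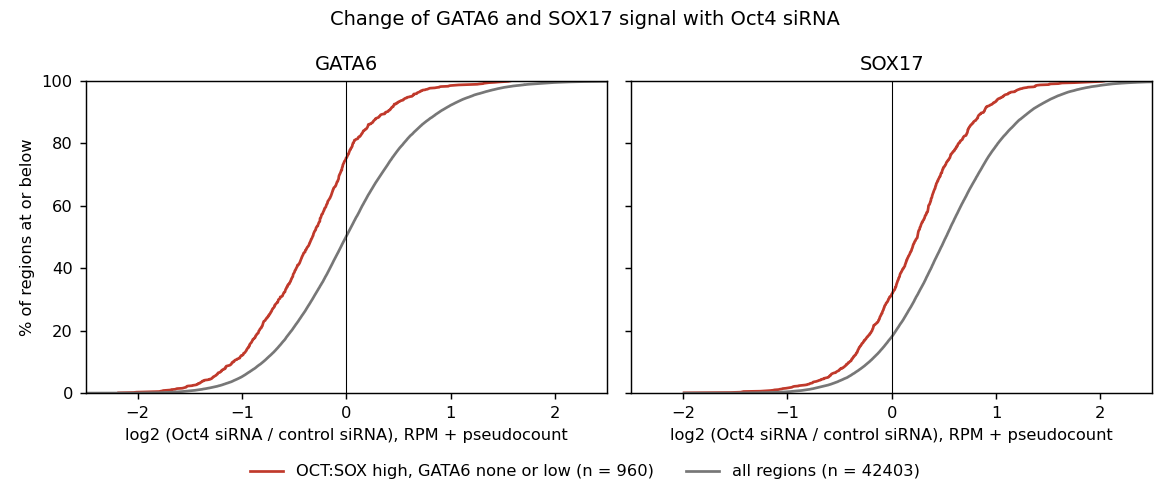
Cumulative share of regions (y axis, %) by the change of signal with Oct4 siRNA compared with control siRNA at day 2 (x axis, log2 of RPM plus pseudocount), for GATA6 on the left and SOX17 on the right, in members (red) and all regions (grey). Both red lines lie to the left of the grey ones, with medians of -0.32 and -0.0039 for GATA6 and 0.25 and 0.52 for SOX17.

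The sets most like the members gave the following values. Regions with high OCT:SOX and SOX17 motifs and the same GATA6 limit (n = 253) were bound by PTFs before Dox in 72.7% of cases, were Transient in 67.2% and had SOX17 peaks in 41.9%. Members had 70.9%, 77.2% and 25.4%. In regions with high OCT:SOX and GATA6 motifs (n = 704), these shares were 57.7%, 57.2% and 37.8%. The same 704 regions had a larger GATA6 change from before Dox to 8 h, with a median of 2.53 and 93.04% at least 2-fold higher. The differences between these sets were not tested, as each condition has 1 value per region.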

How the data were processed

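The deposited table lists GATA6 regions with coordinates, motif matches, classes and RPM values. Per the paper's methods, the authors used cutadapt, bowtie2 on mm10, a mapping quality filter, deduplication by molecular identifiers, and MACS2 on merged replicates. The RPM values deposited by the authors are reads counted per region and scaled to library size, with 1 value per condition, pooled where it has several libraries. Values were whole multiples of 1 read in 100% of cases (tolerance 0.01) in 4 columns, which gave their depth, but no count test can be run on 1 value per condition. The score deposited by the authors for each motif is that of the best FIMO match, with a class of the score and the count of matches, and matches can reach past a region's edge. The GATA6 clusters, PTF, SOX17, accessibility and histone classes were used as deposited. The authors' DESeq2 outcome for siRNA and 14 columns of per-sample values from libraries outside those mapped were not used.

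Members and gene lists were chosen with earlier results of these data known. Changes were differences of log2(RPM + pseudocount), with the pseudocount at percentile 5 of each factor's values, and a change of at least 2-fold was counted. A fold on this scale understates the change of low values. Medians have order-statistic and shares Wilson 95% intervals over regions, which are not independent of one another, so the intervals describe the regions only. All sets compared are subsets of the regions counted as all regions. Genes came from the GENCODE release M21 annotation and sequences from RefSeq's copy of GRCm38, on which every identical 15-base site had 1 score. Regions were named when nearest a listed gene, up to 10 per list by motif score, when among the 6 highest motif scores, or among the 6 highest OCT4 signals before Dox, and 1 of these regions is not reported here. Python 3.11.15 with numpy 2.4.6 was used, and changes and intervals were checked on simulated data. The alternatives were other pseudocounts, input ratios, scaling to all regions, a filter on low values, per-kb, mean and input-subtracted levels, and other motif limits.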

Additional observations from a re-analysis of the deposited data

How the results depend on the processing

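No paired analysis was possible because the replicates of a condition share 1 column and no test was run. Leaving out single replicates was not possible for the same reason. Of 83 alternative values for 13 results, 20 stayed within the 95% interval over regions of the reported value, 62 moved out of it with the same direction and 1 reversed. The cause was not tested beyond what each alternative changes by its construction. In the order GATA6 before Dox to 8 h, GATA6 8 h to day 4, OCT4, SOX2, ESRRB and SOX17 before Dox to day 4, GATA6 and SOX17 with Oct4 siRNA, the median log2 changes with a pseudocount 10 times larger were 0.80, -0.75, -0.87, -0.99, -0.39, -0.23, -0.10 and 0.071. With one 10 times smaller they were 2.28, -2.09, -2.14, -2.62, -1.50, -1.06, -0.43 and 0.31. With the median change of all regions subtracted, GATA6 to 8 h was 0.54, OCT4 -1.99, ESRRB -0.76 and SOX17 -1.58, and SOX17 with Oct4 siRNA reversed to -0.27. On members whose highest signal was at or above the median of all regions, the first 7 changes were 2.53, -1.98, -2.11, -2.56, -1.59, -0.14 and -0.43. With no GATA6 match at all, the first 7 were 1.70, -1.66, -2.10, -2.47, -1.25, -0.99 and -0.26. With a high or mid OCT:SOX motif, the 8 changes were 1.76, -1.50, -1.19, -1.51, -0.93, -0.34, -0.22 and 0.33. As ratios to input, the first 6 were 2.02, -1.60, -1.54, -1.93, -0.98 and -0.48.

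The ratio of members to all regions for OCT4 before Dox, 3.95 by medians, was 2.75 by means, 10.6 after subtracting input and 2.52 with a high or mid OCT:SOX motif. For GATA6 at 8 h the ratio of medians, 1.62, was 1.24 by means, 1.48 per kb, 1.79 after subtracting input, 1.22 with no GATA6 match and 1.40 with a high or mid OCT:SOX motif. The shares bound by PTFs, Transient and bound by SOX17 were 76.5%, 83.5% and 17.6% with no GATA6 match, and 53.1%, 64.2% and 33.0% with a high or mid OCT:SOX motif. Leaving out members with a repeat-masked site, an alternative chosen after seeing the data, moved none of the 13 results out of its interval. Low values rest on few reads, and each may hold an added read per library, since no region is at 0 in any column.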

Other observations

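The time at which each TF was highest on members, from before Dox to day 4, was read per region. OCT4 was highest at 8 h in 64.9% of members, compared with 24.4% of all regions. SOX2 was highest before Dox in 21.1% of members, at 8 h in 39.7% and at 16 h in 25.3%, compared with 4.28%, 23.1% and 17.6% of all regions. The signal of the SOX17 antibody was highest before Dox in 43.4% of members, compared with 7.85% of all regions, and at day 4 in 14.2% and 47.9%. No spread between replicates stands behind these orders, and neighboring times often differed little.

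The number of OCT:SOX matches in a member went with signal and width. The 192 members with 1 match had medians of 2.10 RPM of OCT4 before Dox and 1.76 RPM of GATA6 at 8 h, and 58.9% were bound by PTFs before Dox. The 75 members with 6 or more matches had 7.29 RPM of OCT4 and 5.90 RPM of GATA6, and 96.0% were bound by PTFs before Dox. They were also wider, with medians of 934 and 416 bp, and the part of width was not tested.

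The 71 Late members had low early signals. Their median OCT4 was 0.646 RPM before Dox, GATA6 was 0.601 RPM at 8 h, 2.21 RPM at day 4 and 2.06 RPM in XEN cells, and 12.7% were bound by PTFs before Dox. Their OCT:SOX match lay a median of 121 bp from the GATA6 summit.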
